A study of Mus musculus with 12 samples.

Results

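The 6 T cell receptor beta variable segments TRBV19, TRBV20, TRBV23, TRBV24, TRBV29 and TRBV30 were described in the beta chain (TRB) libraries of 12 thymocyte samples. A read was assigned to a member when the best V hit of its clonotype was that segment and when the clonotype was productive by its CDR3, the loop encoded where the V, D and J segments join (covered, in frame and without a stop codon). The 6 members were 6 of the 24 TRBV segments with a productive read. They held 167962 of 1233404 productive TRB reads and 83377 of 572021 productive nucleotide clonotypes summed over libraries.

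The libraries came from 6 mice, 3 wild type (WT) and 3 Chrna9-/- (KO, also labelled Chrna9 KO), which lack the alpha 9 subunit of nicotinic acetylcholine receptors. The series title concerns cholinergic control of negative selection in the thymus. The mice were 2 pairs of males and 1 pair of females. Their age and strain are not given in the sources used here, and neither is the cell type in which Chrna9 is absent beyond the genotype itself. CD4 single-positive (CD4SP, 1000000 sorted cells) and CD8 single-positive (CD8SP, 330000 sorted cells) thymocytes were sorted from each thymus by CD4 and CD8 alone, which gave 4 groups of 3 libraries. No treatment was given, and all groups share the tissue and kit. The lineages differ in the sorted fraction and in the number of sorted cells. Productive TRB reads numbered 74021 to 134169 per library, 74021 to 104434 in CD4SP and 92648 to 134169 in CD8SP. The gate can hold other T cells. The invariant NKT alpha chain (TRAV11 with TRAJ18, CDR3 of 15 residues) took 5.26% to 8.49% of productive TRA reads in CD4SP and 0.0495% to 0.0897% in CD8SP. The MAIT alpha chain (TRAV1 with TRAJ33, CDR3 of 12 residues) had 0 to 10 reads per library, and TRDV or TRDJ joins were 0.686% to 1.16% of the alpha and delta reads. These joins were lower in every KO library than in every WT library of the same lineage, and the invariant NKT chain was higher in KO in 3 of 3 CD4SP pairs. Here and below, a WT and a KO library of the same replicate number are counted as a pair. This is an assumption, since the labels do not say which mice were paired.

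A beta chain gene is built in immature thymocytes by joining a D to a J segment and then a V segment to that product. The V segment encodes the CDR1 and CDR2 loops, which lie mostly over the MHC molecule, and the first part of the CDR3, which lies mostly over the peptide. A cell then matures as CD4SP after recognising MHC class II or as CD8SP after recognising MHC class I, so each segment can be used at different levels in the lineages. TRBV29 and TRBV19 are among the beta segments that also pair with the invariant alpha chains of NKT cells and of MAIT cells.

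The members lie on chromosome 6 (mm10; coordinates from RefSeq's annotation of the same build), at the end of the main TRBV array that is nearest to the D and J segments. All 36 TRBV and TRBJ segments with productive reads were found in that annotation. TRBV19 lies at chr6:41178589-41179048, TRBV20 at chr6:41188273-41188977, TRBV23 at chr6:41216073-41216526, TRBV24 at chr6:41218091-41218557, TRBV29 at chr6:41271403-41271881 and TRBV30 at chr6:41281376-41281990. TRBV19 ends 354 kb before TRBD1 and TRBV30 ends 251 kb before it. RefSeq lists 5 of the 6 as V segments and TRBV29 as a V segment pseudogene. Older names are V6 for TRBV19, V15 for TRBV20, V20 for TRBV23, V17 for TRBV24, V7 for TRBV29 and V18 for TRBV30.

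The join-facing end of each member is shown because it separates TRBV24 from the others. The lines give the last 24 bases of framework 3 and the V-encoded start of the CDR3 in untrimmed joins, as the most frequent sequence in the deposited clonotypes, 5′ to 3′. The codon at the position before the last framework 3 codon is in capitals.
TRBV19: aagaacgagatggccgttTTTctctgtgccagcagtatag
TRBV20: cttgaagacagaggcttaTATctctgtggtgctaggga
TRBV23: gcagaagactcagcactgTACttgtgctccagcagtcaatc
TRBV24: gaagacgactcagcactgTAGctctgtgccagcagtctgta
TRBV29: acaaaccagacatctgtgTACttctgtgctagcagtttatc
TRBV30: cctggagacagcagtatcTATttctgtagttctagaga

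In 5 members the codon in capitals encoded an aromatic residue, and in TRBV24 it was the stop codon TAG. It was TAG in 2989 of 2994 TRBV24 reads with that part covered (99.8%), and in each of the other members the codon shown was present in 99.9% of reads. The 401 TRBV24 reads that count as productive by their CDR3 therefore all carried a stop codon just before it. Of the TRBV24 reads with a covered CDR3, 82.1% to 92.4% per library were nonproductive. The median over the 21 TRBV segments with a mean of at least 200 productive reads per library, which leave out TRBV24, was 1.51%, with a range from 0.609% to 11.3%. TRBV29, listed as a pseudogene, had an open V region in 99.4% of its productive reads, close to the 99.3% of TRBV20 and inside the range of 96.3% to 99.6% over the 16 other TRBV segments of that depth.

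TRBV30 and TRBV19 also appeared in a shortened form that lacked framework 1, CDR1 and the start of framework 2. The missing stretch, counted from the start of framework 1, was 111 bases in both. Sequence before framework 1 was not examined, so whether the shortened form is read in frame is not known. Framework 2 of both is shown, with the 33 bases that the shortened form kept in capitals.
TRBV30: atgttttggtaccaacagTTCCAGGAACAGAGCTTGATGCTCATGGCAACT
TRBV19: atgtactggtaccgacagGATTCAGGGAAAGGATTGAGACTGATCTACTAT

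The form with this start made up 1515 of the 1534 shortened TRBV30 reads and 397 of the 414 shortened TRBV19 reads. In both segments the kept part began directly after the bases cag of the framework 2 sequence. Over all libraries, 28.7% of TRBV30 reads and 3.41% of TRBV19 reads with a productive CDR3 were shortened (at least 30 bases fewer before CDR2 than the full form). TRBV23 also had 5.46% of such reads, and 313 of its 323 shortened reads shared 1 sequence before CDR2, which was 79 bases shorter than the full form and did not hold its CDR1. In TRBV20 the share was 0.0359%, in TRBV29 it was 0.00555%, and none of the 401 TRBV24 reads was shortened, which allows a share of up to 0.748%. Of the 16 other TRBV segments of that depth 2 exceeded 1%, with a highest value of 2.19% and a median of 0.0714%. Among TRBV30 reads with a nonproductive CDR3, 428 of 451 were shortened (94.9%). The share among nonproductive reads was 26.8% in TRBV23 and 4.58% in TRBV19, each also above that of their productive reads. It was 0% in TRBV20, TRBV24 and TRBV29. Outside the members it ran from 0%, as in TRBV1, to 27.0% in TRBV26.

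**Figure D1:**
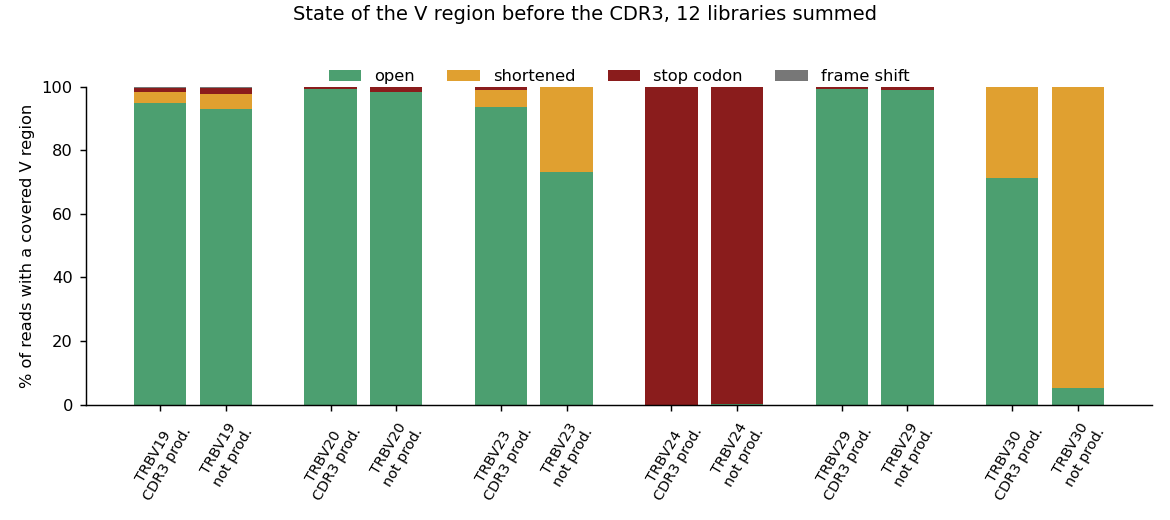
Percent of reads (y axis) by the state of the V region before the CDR3, for each member (x axis), for reads with a productive and a nonproductive CDR3, 12 libraries summed. TRBV24 is filled by the stop codon in both bars, and the shortened form takes 28.7% of the productive and 94.9% of the nonproductive TRBV30 reads.

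The first comparison asked how the members were used in CD4SP against CD8SP cells of the same 6 mice. TRBV19, TRBV20, TRBV23 and TRBV24 took a larger share of productive TRB reads in CD4SP, TRBV29 took a smaller one, and TRBV30 did not pass at this scaling. TRBV24 counts here by its CDR3 alone, since all of its productive reads carried a stop codon before the CDR3. By edgeR's quasi-likelihood test with the mouse as a block and Benjamini-Hochberg adjustment over all TRBV and TRBJ segments tested, 4 members rose in CD4SP and 1 fell. Over all segments 30 of 35 (85.7%) passed, 18 higher and 12 lower, so a member past the threshold is the usual outcome here. In these bulk samples fewer cells with a segment and less RNA per cell cannot be told apart.

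TRBV29 was the most abundant member. In CD4SP its share was 5.78%, 5.15% and 5.58% in WT and 5.20%, 5.68% and 5.25% in KO. In CD8SP it was 11.98%, 10.8% and 11.8% in WT and 10.5%, 11.6% and 10.96% in KO. Every CD8SP library lay above every CD4SP library, and the lowest CD8SP value was 10.5% against a highest CD4SP value of 5.78%. The mean was 5.44% ± 0.273 in CD4SP and 11.3% ± 0.598 in CD8SP (SD, n = 6), a log2 difference of -1.05 (SE 0.0174, adjusted p = 3.45e-16, edgeR). TRBV29 ranked 5 among the 24 TRBV segments in CD4SP and 2 in CD8SP. The invariant NKT chain, which TRBV29 can pair with, was higher in CD4SP, where TRBV29 was lower; its part in the TRBV29 value was not tested.

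TRBV20 was the next member in both lineages. Its share in CD4SP was 3.82%, 3.64% and 3.70% in WT and 3.69%, 3.602% and 3.71% in KO. In CD8SP it was 2.85%, 2.61% and 2.93% in WT and 2.61%, 2.70% and 2.86% in KO. All 6 mice were higher in CD4SP and the lineages did not overlap. The log2 difference was 0.42 (SE 0.0284, adjusted p = 2.95e-09, edgeR), from means of 3.69% ± 0.0740 and 2.76% ± 0.138 (SD, n = 6).

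TRBV19 took 1.12%, 1.097% and 1.07% of the reads in WT CD4SP and 1.01%, 1.051% and 1.02% in KO CD4SP. In CD8SP its share was 0.834%, 0.777% and 0.797% in WT and 0.735%, 0.773% and 0.826% in KO. The lineages did not overlap, and the log2 difference was 0.43 (SE 0.0388, adjusted p = 7.83e-08, edgeR). MAIT cells, whose beta chains can use TRBV19, had at most 10 alpha reads in any library.

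TRBV23 had the largest rise among the members with an open V region. In CD4SP its share was 0.587%, 0.554% and 0.553% in WT and 0.596%, 0.560% and 0.597% in KO. In CD8SP it was 0.313%, 0.327% and 0.353% in WT and 0.390%, 0.361% and 0.349% in KO. The log2 difference was 0.72 (SE 0.0529, adjusted p = 8.63e-09, edgeR), again with all 6 mice higher in CD4SP.

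TRBV24 rested on few reads. Its productive reads numbered 36, 41 and 34 in WT CD4SP, 44, 32 and 43 in KO CD4SP, 32, 18 and 35 in WT CD8SP and 23, 28 and 35 in KO CD8SP. As a share of productive reads this was 0.0439% ± 0.00714 in CD4SP and 0.0246% ± 0.00699 in CD8SP (SD, n = 6), and the ranges overlapped. The log2 difference was 0.85 (SE 0.180, adjusted p = 0.000463, edgeR). Counting each clonotype once in place of its reads gave 0.36, with an adjusted p of 0.105. With nonproductive reads included, TRBV24 took 0.251% to 0.326% of the covered reads in CD4SP and 0.192% to 0.211% in CD8SP, higher in CD4SP in 6 of 6 mice. Nonproductive reads of the whole chain were also a larger share in every CD4SP library than in any CD8SP library. They numbered 1556 to 2366 of 76193 to 107692 TRB reads in CD4SP, and 1276 to 1891 of 94491 to 136885 in CD8SP. The part of this in the TRBV24 value was not tested.

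TRBV30 lies nearest of the members to the D and J segments. Its share was 0.311%, 0.288% and 0.286% in WT CD4SP, 0.347%, 0.340% and 0.277% in KO CD4SP, 0.331%, 0.285% and 0.285% in WT CD8SP and 0.346%, 0.371% and 0.275% in KO CD8SP. The groups overlapped, 4 of 6 mice were higher in CD4SP, and the log2 difference was -0.03 (SE 0.0536, adjusted p = 0.575, edgeR). Other scalings gave a call for it: -0.16 with TMM factors (adjusted p = 0.00798, edgeR) and -0.19 with DESeq2 (adjusted p = 0.0451). These scalings moved the median over all segments from 0.16 to 0.03 and to -0.0043. The same scalings kept the direction of the other 5 members, at 0.30 and 0.27 for TRBV19, 0.29 and 0.26 for TRBV20, 0.59 and 0.56 for TRBV23, 0.72 and 0.70 for TRBV24, and -1.18 and -1.21 for TRBV29. The split of calls over all segments was 18 higher and 12 lower in the main scaling and 14 and 16 with DESeq2, and 16 and 16 with TMM factors.

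**Figure D2:**
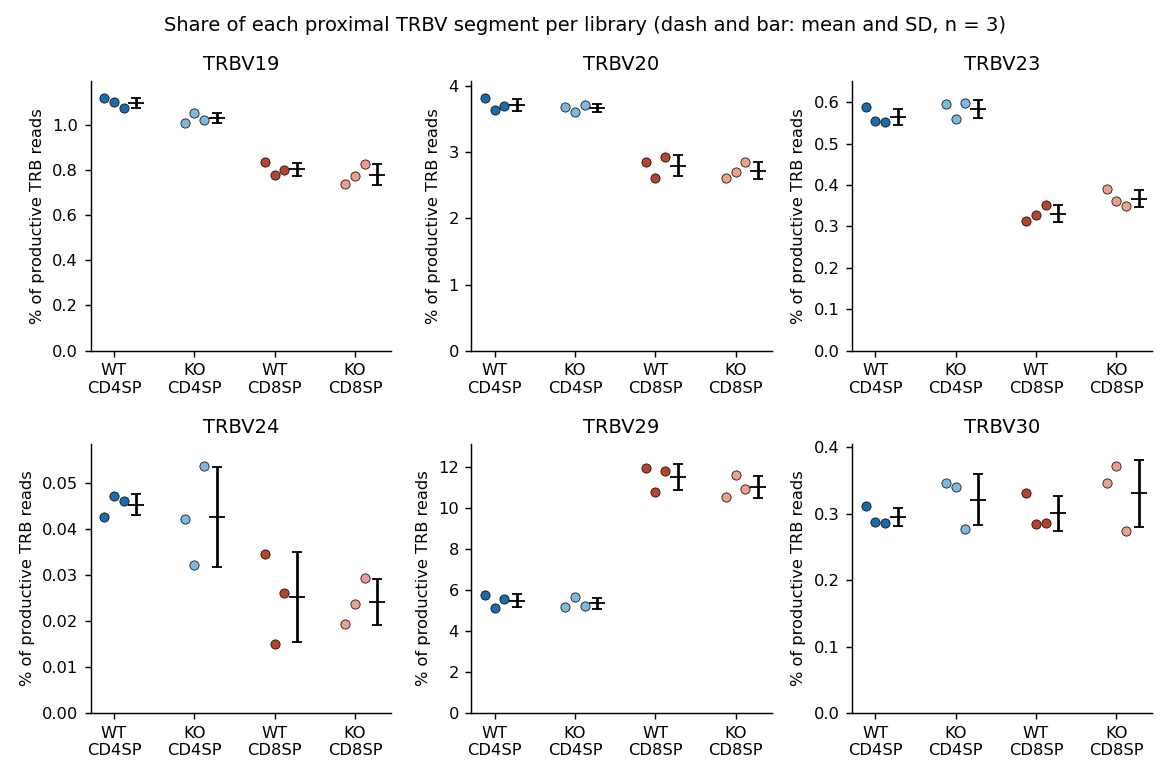
Percent of productive TRB reads (y axes, each from 0) for each member in the 4 groups (x axis); each point is 1 library, and the dash and bar give the mean and SD of 3. TRBV29 sits at 10.5% to 11.98% in CD8SP and at 5.15% to 5.78% in CD4SP, whereas the 4 groups overlap for TRBV30.

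The order of the members was TRBV29, TRBV20, TRBV19, TRBV23, TRBV30 and TRBV24 in CD4SP. No neighbours in that order overlapped. The smallest step was from TRBV29 to TRBV20, 1.47-fold, and the largest was from TRBV30 to TRBV24, 7.01-fold. In CD8SP the same order held by means, but TRBV23 and TRBV30 overlapped there, with TRBV23 higher in 4 of 6 mice and a ratio of 1.11. TRBV29 exceeded TRBV20 4.09-fold in CD8SP. Together the members took 10.8% to 11.7% of the reads in CD4SP and 14.6% to 16.3% in CD8SP.

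Along the locus the members did not move as a block. TRBV24 and TRBV23 had the highest values of the 6, and TRBV29, which lies between them and TRBV30, had the lowest. The median of the members was 0.42, against 0.16 over all 35 segments. Of the 5 distal segments TRBV1 to TRBV5, 3 rose and none fell (median 0.62). Of the 9 central segments TRBV12-1 to TRBV17, 2 rose and 7 fell (median -0.91). TRBV26, which lies inside the members' stretch and is not one of them, had 0.37. TRBV31, which lies in inverted orientation beyond the J segments, had 1.95. The TRBJ1 list had a median of 0.14 and the TRBJ2 list of 0.16, and each had 6 of its 7 segments tested.

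**Figure D3:**
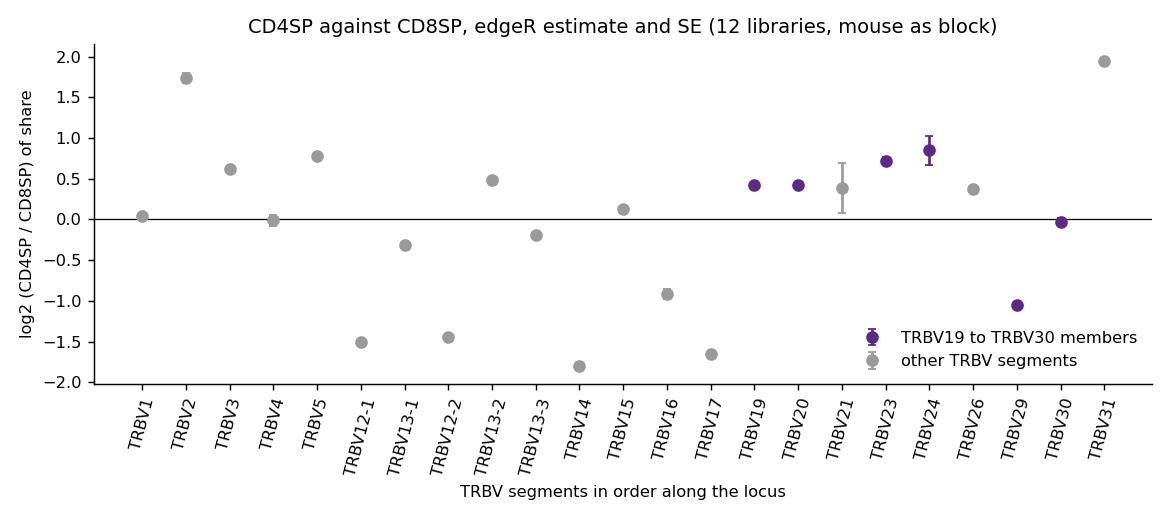
Log2 difference of the share of productive reads between CD4SP and CD8SP (y axis; point and SE from edgeR, 12 libraries) for the TRBV segments tested, in chromosome order (x axis). TRBV29 at -1.05 is the lowest of the purple members, and TRBV23 at 0.72 and TRBV24 at 0.85 are the highest.

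Across the 12 libraries, members TRBV19 and TRBV20 followed each other with a Pearson r of 0.978 for the log2 share. The 3 segments outside the members most like TRBV19 were TRBV5 (0.978), TRBV31 (0.969) and TRBV26 (0.961), and the same 3 were most like TRBV20 (0.982, 0.977 and 0.976). For TRBV23 they were TRBV2 (0.979), TRBV31 (0.974) and TRBV13-2 (0.958), and for TRBV29 they were TRBV17 (0.994), TRBV14 (0.993) and TRBV12-2 (0.970). TRBV30 had no close match, the highest value being 0.553 with TRBV1. These values are descriptions, since the 12 libraries fall into the 2 lineages and the shares of a library sum to a whole.

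The genotype comparison asked whether loss of Chrna9 changed use of the members within each lineage. None of the 6 members differed between KO and WT by edgeR's quasi-likelihood test with the replicate number as a block. Over all segments 0 of 35 (0%) passed in CD4SP and 0 of 35 (0%) in CD8SP. Exactly 1 segment in each lineage had an unadjusted p under 0.05, neither a member, and DESeq2 called 0 in both. In CD4SP the member log2 differences (KO over WT) ran from -0.11 (TRBV24, SE 0.263) to 0.13 (TRBV30, SE 0.102). In CD8SP they ran from -0.06 (TRBV29, SE 0.0534) to 0.14 (TRBV23, SE 0.0813, adjusted p = 0.584). Both ends moved by over 1.5 times with 1 replicate left out, TRBV29 from -0.12 (without WT replicate 2) to -0.016 (without KO replicate 1) and TRBV23 from 0.080 (without WT replicate 1) to 0.20 (without WT replicate 3).

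TRBV29 took 5.50% ± 0.322 in WT and 5.37% ± 0.264 in KO CD4SP, and 11.5% ± 0.647 in WT and 11.04% ± 0.541 in KO CD8SP (SD, n = 3). TRBV20 took 3.72% ± 0.0918 and 3.67% ± 0.0568 in CD4SP, and 2.798% ± 0.164 and 2.72% ± 0.128 in CD8SP. TRBV19 was lower in KO in 3 of 3 pairs in CD4SP, at 1.096% ± 0.0207 in WT and 1.03% ± 0.0221 in KO, with a log2 difference of -0.09 (SE 0.0655, adjusted p = 0.932, edgeR). TRBV23 was higher in KO in 3 of 3 pairs in CD4SP and in 2 of 3 in CD8SP, where WT and KO were 0.331% ± 0.0200 and 0.367% ± 0.0210. TRBV30 was higher in KO in 2 of 3 pairs in each lineage, with log2 differences of 0.13 (SE 0.102) in CD4SP and 0.13 (SE 0.0942) in CD8SP. With 1 replicate left out these ran from 0.074 (without WT replicate 2) to 0.18 (without WT replicate 3) in CD4SP and from 0.038 (without KO replicate 2) to 0.21 (without KO replicate 3) in CD8SP, and neither passed. The test of whether the genotype difference itself differed between lineages called 0 of 35 segments (0%). DESeq2 also called 0, and 0 had an unadjusted p under 0.05 in edgeR. Its member values ran from -0.10 (TRBV23) to 0.03 (TRBV29).

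TRBJ use within each member was tested next, as the share of a member's reads that carried each TRBJ segment. The TRBJ segment encodes the end of the CDR3. In CD4SP against CD8SP, 25 of 57 member pairs passed (14 higher and 11 lower), against 125 of 249 pairs over all TRBV segments (50.2%; edgeR's quasi-likelihood test with the reads of the TRBV as offset). TRBV20 had 10 of 12 pairs past the threshold and TRBV29 had 9 of 12, the 2 deepest members. TRBV30 had 4 of 9, TRBV19 had 1 of 12 and TRBV23 had 1 of 11. Of the 25 pairs that passed, 24 met the minimum count for testing in both lineages. The remaining 1, TRBV30 with TRBJ1-4, met it only in CD4SP. The 1 pair of TRBV24 that could be tested did not pass.

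TRBJ2-1 was lower in CD4SP within 4 members. Its share of TRBV30 reads was 12.3% ± 4.21 in CD4SP and 20.3% ± 4.14 in CD8SP (SD, n = 6), lower in 6 of 6 mice, with a log2 difference of -0.77 (SE 0.187, adjusted p = 0.000553, edgeR). Within TRBV20 it was 10.9% ± 0.537 against 15.6% ± 1.39, a difference of -0.52 (SE 0.0690, adjusted p = 2.15e-08, edgeR). Within TRBV23 it was -0.43 (SE 0.175, adjusted p = 0.0399, edgeR); that call was lost without KO replicate 1 or 3 or WT replicate 2 (adjusted p = 0.101, 0.241 and 0.0801), with DESeq2 (0.0975) and without clonotypes of 1 read (0.257). Over all TRB reads TRBJ2-1 was also lower in CD4SP (-0.45), and 15 of 16 other TRBV segments had the call in this direction, so these members moved in the direction of the whole chain.

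TRBJ1-1 was lower in CD4SP within 3 members. TRBV19 carried it in 6.48%, 7.02% and 7.55% of reads in WT CD4SP and 6.17%, 7.92% and 6.73% in KO CD4SP, and in 11.9%, 11.1% and 8.33% in WT CD8SP and 12.01%, 11.6% and 10.9% in KO CD8SP. No CD4SP library reached the lowest CD8SP library, and the log2 difference was -0.65 (SE 0.141, adjusted p = 0.000141, edgeR). Within TRBV29 and TRBV20 TRBJ1-1 gave -0.50 (SE 0.0584) and -0.50 (SE 0.0707), with 6 of 6 mice lower in both. The value over all TRB reads was -0.22, and 8 of 16 other TRBV segments were lower and none higher.

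TRBJ1-4 was higher in CD4SP within TRBV20, TRBV29 and TRBV30. Its share of TRBV20 reads was 7.07%, 5.59% and 6.25% in WT CD4SP and 5.79%, 7.32% and 6.90% in KO CD4SP. In CD8SP it was 2.802%, 4.201% and 3.56% in WT and 3.23%, 4.13% and 4.13% in KO. The lineages did not overlap, and the log2 difference was 0.82 (SE 0.106, adjusted p = 1.46e-08, edgeR), against 0.34 for TRBJ1-4 over all TRB reads, which was called higher in 7 of 16 other TRBV segments and lower in 1. Within TRBV30 the difference was 1.87 (SE 0.517, adjusted p = 0.00227, edgeR) on 64 CD4SP and 22 CD8SP reads; this pair met the minimum count only in CD4SP libraries, which favours a difference in this direction. Without clonotypes of 1 read this was 2.22 with an adjusted p of 0.0582.

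TRBV20 also rose with TRBJ2-2 (0.65, SE 0.101) and TRBJ2-5 (0.60, SE 0.0788), in 6 of 6 mice each. Within TRBV30, TRBJ2-3 rose by 0.71 (SE 0.256, adjusted p = 0.0178, edgeR) and TRBJ2-5 by 0.58 (SE 0.188, adjusted p = 0.00842, edgeR). The TRBJ2-3 call was lost without WT replicate 2 or 3 (adjusted p = 0.0547 and 0.182) and with DESeq2 (0.0581), and the TRBJ2-5 call without WT replicate 3 (0.0583) and without clonotypes of 1 read (0.0659). Over all TRB reads TRBJ2-2, TRBJ2-3 and TRBJ2-5 were also higher in CD4SP (0.16, 0.29 and 0.17). They were called higher in 9, 9 and 8 of 16 other TRBV segments, and TRBJ2-3 was called lower in 1. These members thus moved in the direction of the whole chain. Between genotypes 0 of 249 pairs (0%) passed in CD4SP and 0 of 249 (0%) in CD8SP. At an unadjusted p under 0.05 there were 8 and 7 pairs, of which 1 and 0 were member pairs, and DESeq2 called 0 in both.

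**Figure D4:**
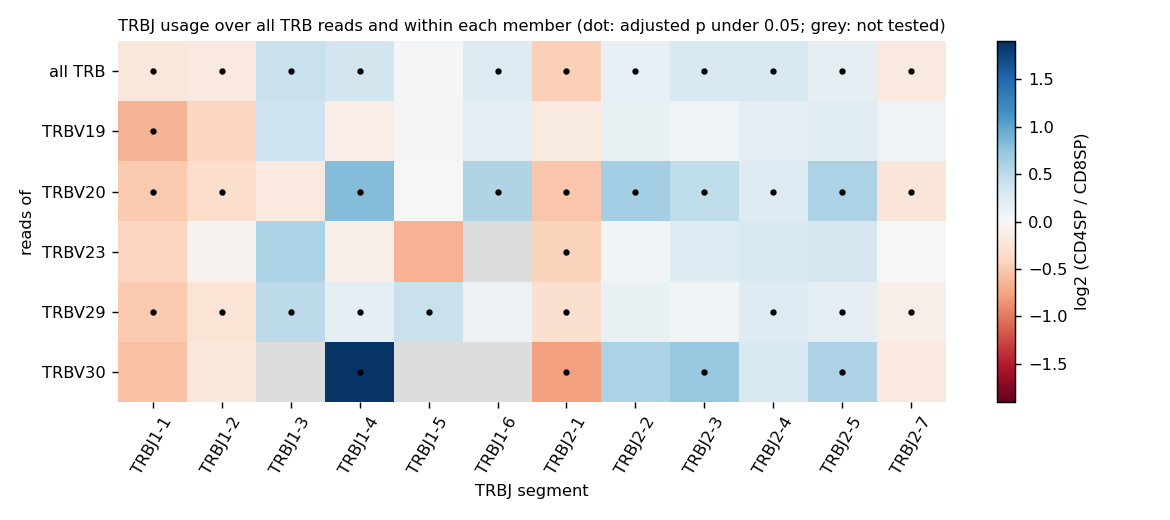
Log2 difference between CD4SP and CD8SP (colour; blue higher and red lower in CD4SP) of TRBJ shares over all TRB reads (top line) and within 5 members (y axis), by TRBJ segment (x axis); a dot marks an adjusted p under 0.05 and grey a pair not tested. TRBJ2-1 is red in every line, and TRBJ1-4 is bluest within TRBV30 (1.87) and TRBV20 (0.82). The TRBV30 pair rests on 64 CD4SP and 22 CD8SP reads. It met the minimum count only in CD4SP libraries, which favours a difference in this direction.

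The shape of the joins was compared with limma on 8 measures of each TRBV segment with a mean of at least 200 productive reads, which left 5 members, and p-values were adjusted over all segments and measures. TRBV29 CDR3s were longer in CD4SP, and those of TRBV20 and TRBV23 were shorter. Mean CDR3 length of TRBV29 was 13.72 ± 0.0322 residues in CD4SP and 13.47 ± 0.0280 in CD8SP (SD, n = 6), a difference of 0.246 residues (SE 0.0231, adjusted p = 1.57e-05, limma), longer in 6 of 6 mice. TRBV20 differed by -0.182 residues (SE 0.0286, adjusted p = 0.000484, limma) and TRBV23 by -0.348 (SE 0.0429, adjusted p = 0.000101, limma), both shorter in 6 of 6 mice. TRBV19 and TRBV30 differed by -0.0502 (SE 0.0386) and -0.175 (SE 0.0852) and did not pass. Of all 21 segments 15 (71.4%) passed, with 2 longer and 13 shorter, and TRBV29 was 1 of the 2 that were longer.

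In TRBV29 the share in CD4SP was lower at 11, 12 and 14 residues and higher at 13, 15 and 16 in 6 of 6 mice. CDR3s of 12 residues took 12.2% ± 0.816 of its CD4SP reads and 15.7% ± 0.773 of its CD8SP reads. Those of 15 residues took 20.1% ± 1.00 and 17.2% ± 0.592. In TRBV23 the difference ran the other way. CDR3s of 13 residues took 23.1% ± 2.71 in CD4SP and 14.6% ± 3.45 in CD8SP, whereas those of 15 residues took 19.95% ± 2.68 and 27.9% ± 1.94. TRBV20 peaked at 13 residues in both lineages, with 35.9% ± 1.00 in CD4SP and 29.8% ± 0.848 in CD8SP.

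**Figure D5:**
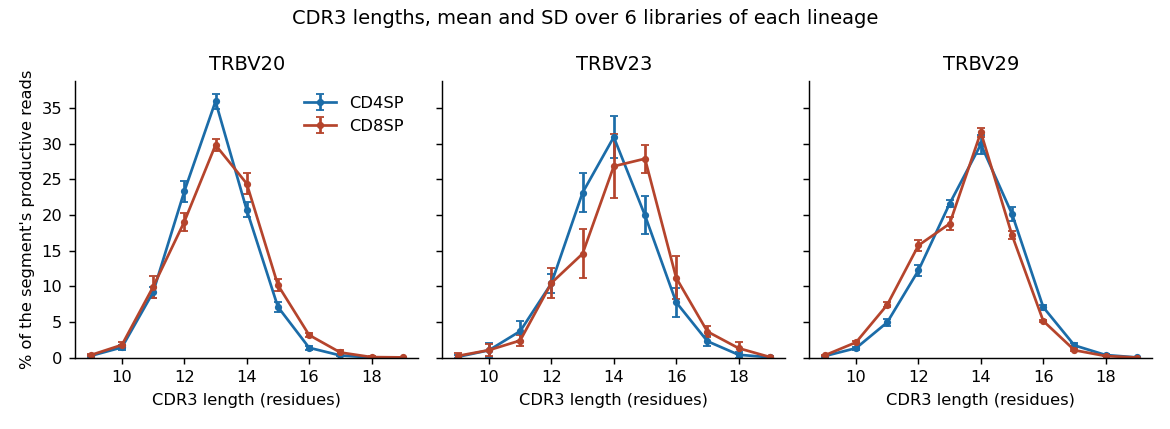
Percent of a segment's productive reads (y axis) by CDR3 length in residues (x axis) for TRBV20, TRBV23 and TRBV29; points and bars are the mean and SD of 6 libraries of each lineage. At 13 residues the CD4SP point is above the CD8SP point in all 3 panels, whereas at 15 residues it is below for TRBV23 and above for TRBV29.

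The bases between the V and J parts of the CDR3, which hold the D segment and added bases, moved with the length. They were fewer in CD4SP in TRBV23 (8.66 ± 0.117 against 9.72 ± 0.224, difference -1.06, SE 0.0836, adjusted p = 1.46e-05, limma) and in TRBV20 (-0.707, SE 0.0670, adjusted p = 4.55e-05, limma). They were more in TRBV29 (0.232, SE 0.0425, adjusted p = 0.00179, limma). Over all segments 18 of 21 (85.7%) passed, 3 with more and 15 with fewer bases. V-encoded bases left in the CDR3 were fewer in CD4SP in TRBV20 (-0.259, SE 0.0421, adjusted p = 0.000826, limma) and more in TRBV19 (0.201, SE 0.0379, adjusted p = 0.00177, limma), with 12 of 21 segments (57.1%) past the threshold.

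The D segment also differed. Among TRBV19 reads with a D call, TRBD2 made up 43.1% ± 2.23 in CD4SP and 36.9% ± 2.70 in CD8SP, a difference of 6.27 percentage points (SE 0.942, adjusted p = 0.000513, limma). TRBV20 differed by 3.61 points (SE 0.667, adjusted p = 0.00164, limma) and TRBV29 by 2.09 (SE 0.603, adjusted p = 0.0153, limma), each higher in 6 of 6 mice. Over all segments 10 of 21 (47.6%) passed, 5 in each direction, and the 3 members that passed were all higher. Use of the TRBJ2 cluster was higher in CD4SP in TRBV20 (2.87 points, SE 0.437, adjusted p = 0.000921, limma) and TRBV19 (3.69 points, SE 1.17, adjusted p = 0.0282, limma), with 7 of 21 segments (33.3%) called. The TRBV19 call for TRBJ2 was lost without KO replicate 1, WT replicate 1 or WT replicate 2 (adjusted p = 0.0755, 0.0690 and 0.0610). Use of TRBD2 and of TRBJ2 was counted on the same joins, so these are not separate results, and their link was not tested.

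Hydropathy of CDR3 residues 6 and 7, which lie at the middle of the loop and whose hydrophobic side chains are associated with self-reactivity, was higher in CD4SP in TRBV20 (-1.08 ± 0.0215 against -1.17 ± 0.0308; difference 0.0902, SE 0.0195, adjusted p = 0.00324, limma). The other 4 members did not pass, and 10 of 21 segments (47.6%) did, 6 higher and 4 lower. Nonproductive reads were a larger share of TRBV29 in CD4SP (1.01% ± 0.286) than in CD8SP (0.391% ± 0.108), by 0.616 points (SE 0.109, adjusted p = 0.00257, limma), with 10 of 21 segments called (47.6%). As stated with TRBV24, nonproductive reads of the whole chain were also a larger share in CD4SP. Productive TRBV29 reads, which are part of the total in this share, were 5.44% of productive TRB reads in CD4SP and 11.3% in CD8SP. The part of either in the TRBV29 value was not tested. Reads per clonotype were lower in CD4SP in all 5 members, as in 21 of 21 segments (100%). In TRBV29 they were 1.67 ± 0.0543 and 2.42 ± 0.112. More cells were sorted for CD4SP and its libraries had fewer reads on average, and the part of depth in this measure was not tested.

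Between genotypes 0 of 168 measures (0%) passed in CD4SP and 0 of 168 (0%) in CD8SP. At an unadjusted p under 0.05 there were 4 and 13, of which 2 and 6 were of members. The smallest p in CD8SP was that of TRBD2 use in TRBV23. The values were 45.9%, 44.8% and 51.3% in WT and 36.8%, 39.4% and 35.4% in KO. All 3 KO libraries lay below all 3 WT libraries, with a difference of -10.1 points (SE 1.98, adjusted p = 0.101, limma). Without the replicate block the adjusted p was 0.0269, and with each clonotype counted once the difference was -7.06 points with an adjusted p of 0.0360. In CD4SP the same measure differed by 2.5 points (SE 1.98, adjusted p = 0.921, limma). The test of a difference between lineages called 0 of 168 (0%), with an adjusted p of 0.256 for this measure and 9 measures at an unadjusted p under 0.05.

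The shortened V region was compared in the same way; this measure was chosen after the form had been seen in the reads. In CD4SP against CD8SP, 0 of 21 segments (0%) passed with limma, and 4 had an unadjusted p under 0.05. TRBV19 had 2.77% ± 0.459 shortened reads in CD4SP and 4.09% ± 1.09 in CD8SP, lower in 6 of 6 mice (difference -1.33 points, SE 0.364, adjusted p = 0.0880, limma). A count test of the shortened reads did call TRBV19 (log2 difference -0.55, SE 0.161, adjusted p = 0.00423, edgeR). That test called 4 of the 8 segments it covered. TRBV30 had 31.6% ± 6.93 and 27.0% ± 5.00, and TRBV23 had 5.60% ± 0.897 and 5.09% ± 1.28.

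Between genotypes 0 of 21 (0%) passed in CD4SP, with 2 at an unadjusted p under 0.05, and 1 of 21 (4.76%) in CD8SP, which was TRBV19. Its shortened reads numbered 41 of 773, 48 of 934 and 50 of 1069 in WT CD8SP and 28 of 874, 32 of 916 and 27 of 986 in KO CD8SP. These were 5.30%, 5.14% and 4.68% in WT and 3.20%, 3.49% and 2.74% in KO, so that every KO library lay below every WT library. The difference was -1.895 points (SE 0.257, adjusted p = 0.00452, limma), between -2.05 and -1.66 when 1 library was left out, and it passed each time. This SE comes from the spread of the percentages and does not use the numbers of reads behind them, so it can understate counting error. The count test gave a log2 difference of -0.68 (SE 0.187, adjusted p = 0.0133, edgeR), its 1 call among 8 segments. TRDV or TRDJ joins were also lower in the KO CD8SP libraries, at 0.744%, 0.839% and 0.686% against 1.16%, 0.861% and 0.972% in WT, and their part in the TRBV19 value was not tested. In CD4SP TRBV19 had 2.95% ± 0.364 in WT and 2.58% ± 0.538 in KO (SD, n = 3), which did not pass (adjusted p = 0.423, limma). The difference between the lineages did not pass either (0 of 21, 0%, with 3 at an unadjusted p under 0.05; TRBV19 1.52 points, SE 0.368, adjusted p = 0.235, limma).

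TRBV30, with the largest shortened share, had 29.7%, 37.2% and 42.0% in WT CD4SP and 30.1%, 28.02% and 22.5% in KO CD4SP. WT replicate 1 lay between the KO values, and the difference of -9.39 points (SE 4.12) had an adjusted p of 0.415 by limma. Restricting reads to an open V region left TRBV30 below the threshold of the lineage test (log2 -0.13, adjusted p = 0.124, edgeR) and TRBV19 higher in CD4SP (0.45).

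Single amino acid clonotypes of the members were mostly found in 1 library. Of 35297 TRBV29 clonotypes 14.2% were found in at least 2 libraries, and 1 was found in all 12. The shares were 12.8% for TRBV20 (15654 clonotypes), 5.22% for TRBV19 (6442), 3.803% for TRBV23 (3129), 3.51% for TRBV30 (1711) and 0.709% for TRBV24 (282), in the order of their numbers of clonotypes. Over all TRBV segments it was 14.8% of 406405. Only 8 member clonotypes, 5 of TRBV29 and 3 of TRBV20, had enough reads to test between lineages. By edgeR 5 of them passed, as did 119 of 203 over all segments (58.6%). All 5 had met the minimum count only through the lineage in which they were higher, so that the count favours a difference, and their reads are given as a description with no test. With no such minimum none of the 5 passed (adjusted p = 0.807, edgeR).

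The 5 clonotypes are shown by the most frequent nucleotide sequence of their CDR3, with the bases between the V and J parts in capitals. The capitals include bases of the D segment, so they do not mark added bases alone. In the order shown, 0, 1, 0, 0 and 1 of the bases in capitals lay outside a D call, and the TRBV20 sequence with TRBJ2-3 had no D call.
TRBV20 with TRBJ2-7: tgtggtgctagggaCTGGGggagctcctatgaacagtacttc
TRBV20 with TRBJ2-3: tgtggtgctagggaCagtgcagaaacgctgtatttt
TRBV29 with TRBJ2-5: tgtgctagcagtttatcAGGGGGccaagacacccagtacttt
TRBV29 with TRBJ2-7: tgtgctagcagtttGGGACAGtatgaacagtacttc
TRBV29 with TRBJ2-3: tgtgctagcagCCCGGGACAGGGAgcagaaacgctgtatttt

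Both TRBV20 clonotypes were higher in CD4SP. The sequences shown held 79 of 129 reads of the TRBJ2-7 clonotype and 62 of 74 of the TRBJ2-3 clonotype. These sequences had the whole V end of TRBV20 shown above, with 5 bases and 1 base between V and J. The TRBJ2-7 clonotype had 15, 21 and 11 reads in WT CD4SP and 31, 21 and 18 in KO CD4SP, against 2, 1 and 0 in WT CD8SP and 3, 6 and 0 in KO CD8SP, where a count of 0 allows up to 3 reads. Every CD4SP library exceeded every CD8SP library. The TRBJ2-3 clonotype had 62 reads in CD4SP and 12 in CD8SP. Its highest CD8SP library, KO replicate 2, had 7 reads, so the lineages overlapped.

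The 3 TRBV29 clonotypes were lower in CD4SP, and the D call of each sequence shown was TRBD1. These sequences held 37 of 97 reads of the TRBJ2-5 clonotype, 16 of 89 of the TRBJ2-7 clonotype and 14 of 60 of the TRBJ2-3 clonotype. D calls of the other nucleotide forms are not given. The TRBJ2-5 clonotype had 22, 13 and 16 reads in WT CD8SP and 17, 1 and 17 in KO CD8SP, and 11 reads in all in CD4SP, found in 3 of 6 libraries. The TRBJ2-7 clonotype had 10, 2 and 15 reads in WT CD8SP and 9, 28 and 16 in KO CD8SP, and 9 in all in CD4SP. The TRBJ2-3 clonotype had 0, 5 and 20 reads in WT CD8SP and 12, 6 and 13 in KO CD8SP, and 4 in all in CD4SP. In each of these 3 at least 1 CD8SP library lay within the CD4SP range.

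One TRBV29 join stood apart by its size. It was chosen after its values were seen, as the member clonotype with the most reads in 1 library.
TRBV29 with TRBJ2-3: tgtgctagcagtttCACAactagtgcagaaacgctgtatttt
It had 57 reads in WT CD4SP replicate 1, 1.17% of the TRBV29 reads there, and 1 read elsewhere (KO CD8SP replicate 2). It could not be tested.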

How the data were processed

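The authors deposited, for each clonotype, read counts as whole numbers. A deposited fraction of reads stands beside them, per the file headers, and served to check the counts only. The labels name a SMARTer kit for the libraries and MiXCR for assembly, and the submitters' processing notes name mm10. Versions and filters of that step are not given in the sources used here. No molecule counts are present, so the limits given for a count of 0 cover counting error of reads only. SEs come from the edgeR and limma fits, which estimate the spread between libraries.

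Reads were summed per segment, V and J pair and amino acid clonotype and tested with edgeR 4.0.16 in R 4.3.3, with productive TRB reads as library size, filterByExpr and Benjamini-Hochberg adjustment (threshold 0.05). DESeq2 1.42.0 was an alternative, and limma 3.58.1 tested percentages and means. An open V region had no stop codon or frame shift before the CDR3, read in the frame of the CDR3. CD4SP against CD8SP had the mouse as a block. Genotype contrasts used all 12 libraries blocked on replicate number, since the series' design speaks of pairs. They treat the lineages of a mouse as independent, although these deviated together (r from 0.206 to 0.642); WT and KO libraries of 1 number did not do so consistently (-0.530 to 0.513). Replicate libraries of a group shared 2.39% to 3.20% of clonotypes, and each was kept as a separate library, as labelled. Their TRBV read counts differed by more than random sampling of reads gives. Copies of a molecule count as separate reads there, so this difference cannot exclude a repeat. The scripts were tested on simulated data.

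The members and lists were chosen with earlier results of these data known. Named were every member; member pairs past the threshold, at most the 6 largest per direction; member clonotypes past it, at most the 5 largest per direction (or, with fewer than 3 past it, the 3 lowest p-values); and the 3 other TRBV segments with the most similar pattern. Other steps ran in Python 3.11.15.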

Additional observations from a re-analysis of the deposited data

How the results depend on the processing

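Lineage calls of TRBV19, TRBV20, TRBV23 and TRBV29 kept their direction and their side of the threshold in every alternative run. The counts of calls over all features changed by over 1.5 times in few settings. With clonotypes of 1 read left out, and with only the 6 libraries of the lineage, 1 segment (TRBJ2-7, no member) was called between genotypes in CD4SP, against 0 otherwise. Leaving out 1 replicate gave 0 to 1 there (TRBJ2-7, without KO or WT replicate 3), 0 to 3 in CD8SP (TRBV16, TRBV4 and TRBV5, without WT replicate 2) and 0 to 2 for the difference between lineages (TRBV16 and TRBV4, without WT replicate 2), none of them members. The replicate block changed 1 call: without it, and with each clonotype counted once, 1 of the measures was called between genotypes in CD8SP (TRBD2 use in TRBV23), whereas the genotype counts of segments and pairs stayed at 0 without the block and the TRBV19 call for the shortened form in CD8SP kept its side (adjusted p = 0.00643, limma). Clonotypes called between lineages fell from 119 to 3 with no filter on low counts. For the shortened V region the count test called 4 segments between lineages (over 8 tested), the fit with no mouse block 2, and leaving out 1 library gave 0 to 1 between genotypes in CD4SP (TRBV14, without WT replicate 1). With no filter on low counts 406405 clonotypes were tested in place of 203. The cause was not tested in any of these cases.

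Uncalled genotype values near 0 changed sign. With clonotypes of 1 read left out they were 0.011 for TRBV20 in CD4SP, and 0.36 (TRBV24) and 0.010 (TRBV30) for the difference between lineages. With each clonotype counted once they were 0.020 (TRBV20) and 0.099 (TRBV24) in CD8SP and -0.043 for the TRBV20 difference, and with open V regions the TRBV30 difference was 0.080. Leaving out 1 replicate gave -0.051 to 0.0033 (TRBV20), -0.23 to 0.085 (TRBV24) and -0.093 to 0.012 (TRBV29) in CD4SP. In CD8SP it gave -0.10 to 0.0042 (TRBV19), -0.076 to 0.0021 (TRBV20) and -0.22 to 0.28 (TRBV24). For the difference between lineages it gave -0.074 to 0.00040 (TRBV19), -0.019 to 0.054 (TRBV20), -0.36 to 0.26 (TRBV24) and -0.050 to 0.032 (TRBV30). Depth limits TRBV24, at 18 to 44 productive reads per library, and TRBV30, at 212 to 440, the most. The 3 mice per genotype bound the genotype comparisons, and a value that missed the threshold does not show that the genotypes were alike.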
